A study of Mus musculus with 6 samples.

Results

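The 6 genes described here are the paired-box genes Pax3 and Pax7 and the 4 myogenic regulatory factors Myf5, Myod1, Myog and Myf6, taken by symbol from the 49492 gene rows of the deposited count table. RNA sequencing was done on soft palates dissected from mouse embryos of stage E14.5. The tissue was the hind part of the palate, so muscle is one of several tissues in each sample. There were 3 libraries from Dlx5-/- embryos and 3 from wild-type control embryos. The labels name no other allele, no treatment and no pooling, and they give neither strain nor sex. The series asks how Dlx5, a homeobox gene of the neural crest, shapes the interaction of crest cells with muscle precursors in the oropharynx.

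Skeletal muscle forms from precursors that pass through ordered steps. Pax3 and Pax7 encode transcription factors of muscle progenitors, and Pax7 also marks the later satellite cells. Myf5 and Myod1 encode the basic helix-loop-helix (bHLH) factors that commit a cell to the muscle lineage, Myog encodes myogenin, which is required for differentiation into fibres, and Myf6 encodes MRF4, which can act in commitment and is abundant in maturing fibres. The bHLH factors bind DNA as dimers with E proteins at the E-box, written CANNTG. In the trunk Pax3 acts upstream of Myf5 and Myod1. In the head the first steps run without Pax3, through factors such as Tbx1, Msc and Tcf21. Pax3 also acts outside muscle, in neural crest, dorsal neural tube and melanocyte precursors, and Pax7 in neural tube and parts of the cephalic crest.

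Of the 6 genes, 3 had an entry in the RefSeq promoter table (GRCm38), namely Pax7, Myf5 and Myog. The 250 bases before the RefSeq start of Myog and of Myf5 are printed because these bHLH genes differ in the sequence that their own protein family binds. The Myog stretch is chr1:134289754-134290003 on the plus strand and the Myf5 stretch is chr10:107486135-107486384 on the minus strand. Both are written 5′ to 3′, with each E-box in capitals.
Myog: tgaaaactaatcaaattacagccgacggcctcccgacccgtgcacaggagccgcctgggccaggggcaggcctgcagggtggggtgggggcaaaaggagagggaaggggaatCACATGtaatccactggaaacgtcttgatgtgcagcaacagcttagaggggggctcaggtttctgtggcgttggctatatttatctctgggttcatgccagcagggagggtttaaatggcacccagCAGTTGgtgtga
Myf5: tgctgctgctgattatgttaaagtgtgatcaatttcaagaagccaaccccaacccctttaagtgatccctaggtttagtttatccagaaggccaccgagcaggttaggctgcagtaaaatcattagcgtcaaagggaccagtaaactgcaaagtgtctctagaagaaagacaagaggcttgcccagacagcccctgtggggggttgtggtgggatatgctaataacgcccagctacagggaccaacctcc
The search was for CANNTG, which reads the same on both strands. The Myog window held 2 E-boxes. CACATG began 138 bases before the RefSeq start (chr1:134289866-134289871), and CAGTTG began 12 bases before it (chr1:134289992-134289997). GENCODE M21 places the start of Myog 15 bases further upstream, so the second E-box lies just inside its first exon there. The Myf5 window held 0. Of 32851 windows of this length in the table, 66.2% held at least 1 E-box and 31.8% at least 2, so such matches are common and are a description of the letters only. On the same build Myf5 (chr10:107482908-107486134) and Myf6 (chr10:107492853-107494737) lie in tandem on the minus strand with 6718 bases between them. Myod1 lies at chr7:46376474-46379099 on the plus strand, Pax7 at chr4:139737062-139833528 and Pax3 at chr1:78101267-78197134, both on the minus strand. None of the 6 overlapped another annotated gene.

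Library totals ran from 6891724 estimated counts (control replicate 3) to 11922391 (control replicate 2). Meox2, a marker of posterior palate, was present in every library, at 27.4 to 33.6 CPM in knockouts and 32.4 to 37.3 CPM in controls. Knockout replicate 3 stood apart, with a mean correlation of 0.959 with the other libraries, against 0.970 to 0.976 for those, and it also held transcripts of mature brain (values below). Rows that collect ribosomal RNA held 0.512% of its counts, against 1.42% to 2.62% in the other libraries. Values without knockout replicate 3 are therefore given beside each gene. Dlx5 itself had 7, 15 and 17 estimated counts in the knockout libraries and 242, 193 and 113 in the controls, so every library matched its label. It was the single gene past the threshold of 16218 tested (log2 fold change -3.93; adjusted p = 0.0205, edgeR quasi-likelihood with Benjamini-Hochberg adjustment at 0.05), or 0.00617% called lower. Levels below are counts-per-million values (CPM) after TMM normalization, and fold changes are knockout over control.

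For all 6 genes the mean was higher in Dlx5-/- soft palates. The fold changes fitted by edgeR were 1.46 for Pax3, 1.84 for Pax7, 2.15 for Myf5, 1.72 for Myod1 and 2.23 for Myog, while Myf6 was barely detected in controls. None of the 5 genes that passed the filter on low counts (a mean of at least 1 CPM) passed the test after adjustment, where the background of genes called higher was 0%. At an unadjusted p under 0.05 there were 3 of 5 (Pax7, Myod1 and Myog), against a background of 5.6% of all tested genes higher at that level and 7.23% lower. Estimates above 0 were found for 52.5% of all genes, whose median log2 fold change was 0.01. In these bulk samples more muscle cells and more RNA per muscle cell cannot be told apart.

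**Figure D1:**
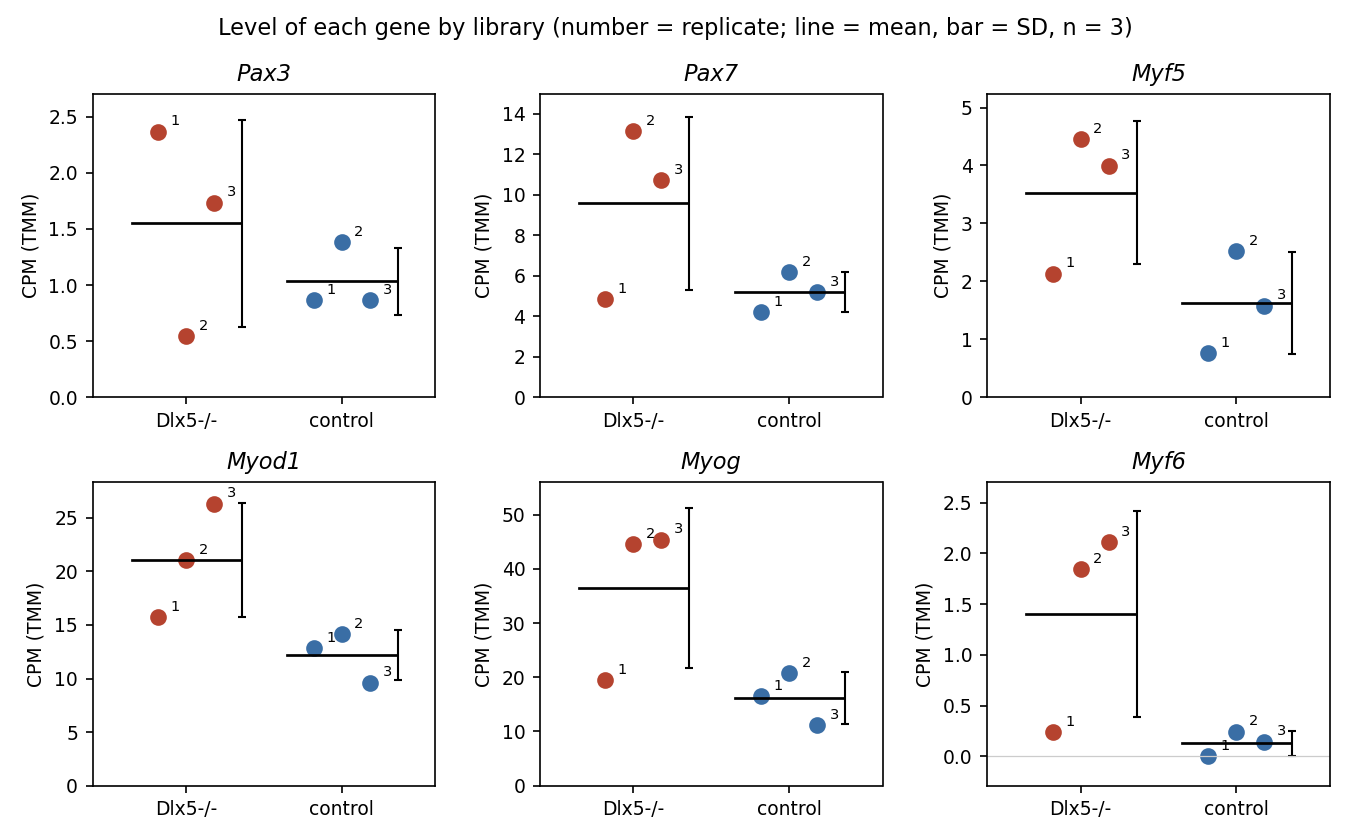
TMM-normalized CPM (vertical axis, linear) of each gene in each library, with Dlx5-/- libraries in red and control libraries in blue, replicate numbers beside the points, and the mean and SD of 3 libraries in black. Knockout replicates 2 and 3 lie above every control for Pax7, Myf5, Myod1, Myog and Myf6, while knockout replicate 1 lies among or near the controls for these 5 genes.

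The knockout libraries were uneven. Knockout replicate 3 was above every control for 6 of the 6 genes and knockout replicate 2 for 5, but knockout replicate 1 was at or below the highest control for 4. Knockout replicate 1 was the lowest of the 3 knockout libraries for 5 of the 6 genes, Pax3 being the exception. The plot of CPM by library shows this split.

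Among the progenitor genes, Pax7 measured 4.86, 13.1 and 10.7 CPM in knockout replicates 1, 2 and 3, against 4.21, 6.17 and 5.17 CPM in control replicates 1, 2 and 3. Knockout replicate 1 lay inside the control range, so the groups overlapped. The means were 9.57 ± 4.26 CPM in knockouts and 5.19 ± 0.979 CPM in controls (SD, n = 3 each). The estimated log2 ratio of knockout to control was 0.88 (SE 0.36; 95% confidence interval 0.07 to 1.70; adjusted p = 0.343, edgeR). It was 0.79 without knockout replicate 3 and ran from 0.59 without knockout replicate 2 to 1.19 without knockout replicate 1.

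Pax3 was scarce, with 20, 5 and 23 estimated counts in the knockouts and 8, 17 and 6 in the controls. In CPM these were 2.37, 0.543 and 1.74 in knockouts and 0.864, 1.38 and 0.862 in controls. Its order over libraries differed from that of the other 5 genes: the lowest value of all belonged to knockout replicate 2, where Pax7 was highest. The log2 fold change was 0.55 (SE 0.57; 95% confidence interval -0.75 to 1.85; adjusted p = 0.748, edgeR), 0.44 without knockout replicate 3, and 0.15 without knockout replicate 1 to 0.93 without knockout replicate 2. There were 48 counts in all knockouts and 31 in all controls. The exact binomial interval of the ratio of summed counts per depth ran from 0.892 to 2.32. It included equal levels, and it covers counting error only.

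Of the commitment genes, Myod1 was the one member of the 6 whose groups did not overlap, where 9.48% of all tested genes were higher without overlap. It measured 15.8, 21.1 and 26.3 CPM in knockouts, against 12.8, 14.1 and 9.63 CPM in controls. The gap was small: the lowest knockout library exceeded the highest control by less than the SD of either group. Means were 21.1 ± 5.29 CPM in knockouts and 12.2 ± 2.32 CPM in controls (SD, n = 3 each). This gave an estimate of 0.78 on the log2 scale (SE 0.22; 95% confidence interval 0.28 to 1.28; adjusted p = 0.171, edgeR), 0.58 without knockout replicate 3, and 3.27% of tested genes had a larger one.

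Myf5 measured 2.13, 4.46 and 3.999 CPM in knockouts and 0.756, 2.52 and 1.58 CPM in controls. Knockout replicate 1 lay below control replicate 2, so the groups overlapped. The means were 3.53 ± 1.23 CPM in knockouts and 1.62 ± 0.881 CPM in controls (SD, n = 3 each). Its log2 fold change came to 1.10 (SE 0.48; 95% confidence interval -0.01 to 2.21; adjusted p = 0.392, edgeR), 0.99 without knockout replicate 3, and 0.76 without control replicate 1 to 1.62 without control replicate 2. These levels rest on 18, 41 and 53 estimated counts in knockouts and 7, 31 and 11 in controls.

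Myog, the differentiation factor, measured 19.4, 44.6 and 45.4 CPM in knockouts, against 16.5, 20.8 and 11.2 CPM in controls. Knockout replicates 2 and 3 were each more than double any control, whereas knockout replicate 1 lay inside the control range. The means were 36.5 ± 14.8 CPM in knockouts and 16.2 ± 4.79 CPM in controls (SD, n = 3 each). The estimate was 1.16 on the log2 scale (SE 0.33; 95% confidence interval 0.40 to 1.92; adjusted p = 0.181, edgeR), the largest among the 5 tested members, and it was 0.96 without knockout replicate 3. Of all tested genes, 1.68% had a larger one.

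Myf6 had 2, 17 and 28 estimated counts in knockouts and 0, 3 and 1 in controls, a mean over all libraries of 0.779 CPM before TMM, just under the filter, while Pax3 with 1.32 CPM was just above it. Nearly all Myf6 reads therefore came from knockout replicates 2 and 3, and knockout replicate 1 at 0.237 CPM lay within the control range of 0 to 0.244 CPM. The 47 counts in all knockouts against 4 in all controls gave a ratio per depth of 10.9 (exact binomial interval 3.97 to 41.5, counting error only). In an edgeR fit with no filter the log2 fold change was 3.28 (SE 0.92; 95% confidence interval 1.40 to 5.15; adjusted p = 0.0536), and without knockout replicate 3 it was 2.82 (adjusted p = 0.183). With controls this close to 0 the fitted value depends on how low counts are handled and is no bound.

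Whether these genes were called depended on the fit. With no filter on low counts, edgeR called 2 of the 6, Myog (adjusted p = 0.00145) and Myod1 (adjusted p = 0.0195), where 0.817% of 29870 genes were called higher. That fit carried 28.1 degrees of freedom per gene in its spread, against 8.29 with the filter, and the fold changes were nearly the same (1.17 for Myog and 0.79 for Myod1). DESeq2 called 1 of the 4 members that it gave an adjusted p, Myog (log2 fold change 1.17; adjusted p = 0.00753), where 0.807% of 14614 genes were called higher and 2.62% lower, and gave Myod1 an adjusted p of 0.0535. Without any 1 library edgeR called none of the 5 tested members, with the smallest adjusted p = 0.1015 for Myog without knockout replicate 1.

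**Figure D2:**
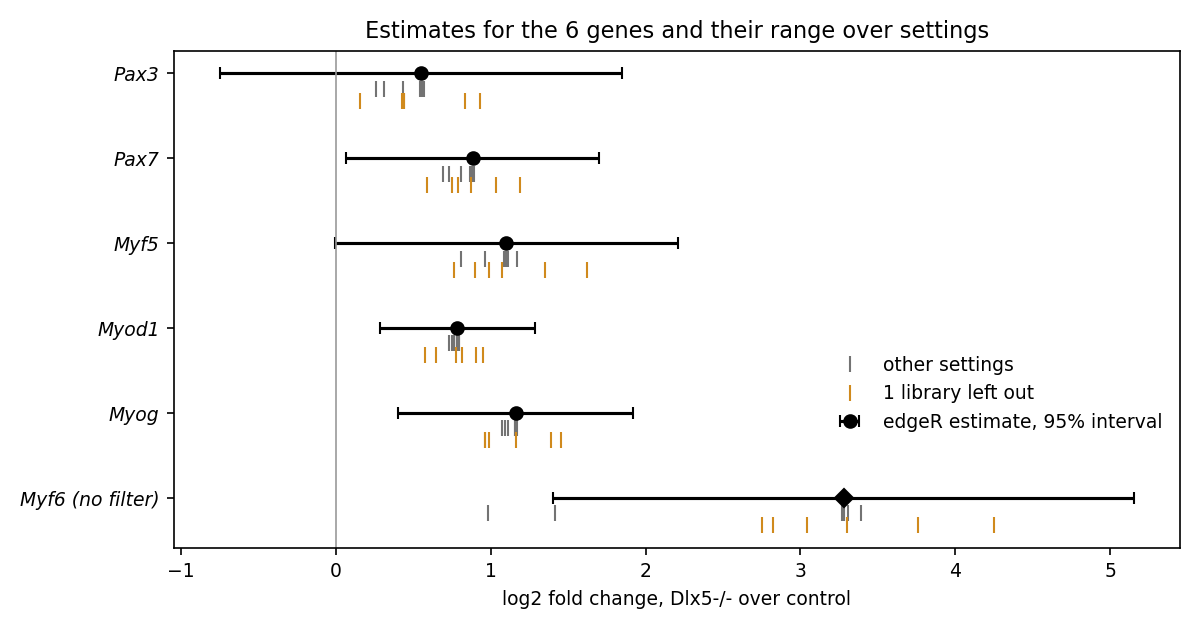
Log2 fold change of each gene, Dlx5-/- over control (horizontal axis). Black symbols show the edgeR estimate with its 95% confidence interval (Myf6 from the fit with no filter), grey ticks other settings and orange ticks fits with 1 library left out; every tick lies above 0, and Pax3 comes closest to it at 0.15.

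Per kilobase of exon, the order of the levels was the same at the top in both groups and differed among close neighbours below. Myog was the most abundant, at 24.4 ± 9.88 CPM per kilobase in knockouts and 10.8 ± 3.21 in controls (SD, n = 3 each), and was above Myod1 in each of the 6 libraries. Myod1 followed at 11.3 ± 2.84 CPM per kilobase in knockouts and 6.56 ± 1.24 in controls. Myf5 and Pax7 came next and did not differ beyond their spread, at 1.69 ± 0.591 and 1.63 ± 0.727 CPM per kilobase in knockouts, and at 0.777 ± 0.423 and 0.885 ± 0.167 in controls. Myf6 and Pax3 were lowest and overlapped each other in both groups, with Myf6 at 1.11 ± 0.804 CPM per kilobase in knockouts and 0.102 ± 0.0969 in controls, and Pax3 at 0.250 ± 0.150 and 0.167 ± 0.0482. Myf6 also overlapped Myf5 and Pax7 in the knockouts. Myog and Myod1 thus outweighed the progenitor genes in every library, and the gap between Myod1 and Myf5 was wider than the spread of either.

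As shares of the summed level per kilobase of the 4 bHLH genes, Myog made up 57.3%, 66.6% and 63.1% in knockouts and 60.3%, 60.7% and 55.4% in controls. Myod1 made up 37.3%, 25.3% and 29.4% in knockouts and 37.7%, 33.2% and 38.2% in controls. Both sets of shares overlapped between groups. Myf6 was at 0.827%, 3.27% and 3.48% in knockouts and at no more than 0.842% in controls.

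Ratios within a library do not depend on scaling between libraries, and 8 were compared with exact two-sided permutation tests, for which 0.1 is the smallest p that 3 against 3 libraries allow. Myog over Myod1 in CPM was 1.23, 2.11 and 1.72 in knockouts and 1.29, 1.47 and 1.16 in controls (log2 difference 0.34; exact permutation p = 0.3, Benjamini-Hochberg adjusted 0.8). The ratio was above every control in knockout replicates 2 and 3 and inside the control range in knockout replicate 1. Pax7 over Myod1 was 0.308, 0.624 and 0.407 in knockouts and 0.328, 0.437 and 0.537 in controls (log2 difference 0.01; exact permutation p = 1). Pax7 over Myog was 0.250, 0.295 and 0.236 in knockouts and 0.255, 0.297 and 0.462 in controls (log2 difference -0.33; exact permutation p = 0.2, adjusted 0.8). None of the ratios separated the groups.

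Muscle RNA over the libraries was ordered much like the members other than Pax3, which was lowest in the library with the most of it. The summed level of 12 skeletal muscle markers, all of them detected in every library, was 980.2, 2669 and 1688 CPM in knockouts and 874.1, 1236 and 759.0 CPM in controls. Knockout replicate 1 was again inside the control range, and knockout replicates 2 and 3 were above it. Per 1000 CPM of these markers, Myod1 measured 16.1, 7.90 and 15.6 CPM in knockouts, against 14.7, 11.4 and 12.7 CPM in controls (log2 difference -0.04; exact permutation p = 1). On the same scale Pax7 measured 4.95, 4.93 and 6.35 CPM in knockouts and 4.82, 4.99 and 6.82 CPM in controls (log2 difference -0.03; exact permutation p = 0.8, adjusted 1). Relative to muscle markers the knockout mean of both genes was thus within the control range. For Myod1 this mean averaged opposite deviations. Knockout replicates 1 and 3 lay above every control, and knockout replicate 2, the library with the most muscle RNA, lay below every control.

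Myog per 1000 CPM of muscle markers was 19.8, 16.7 and 26.9 in knockouts and 18.9, 16.8 and 14.8 in controls (log2 difference 0.31; exact permutation p = 0.3, adjusted 0.8). Myf5 on that scale was 2.17, 1.67 and 2.37 in knockouts and 0.865, 2.04 and 2.08 in controls (log2 difference 0.41; exact permutation p = 0.5, adjusted 1). The groups overlapped for both.

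**Figure D3:**
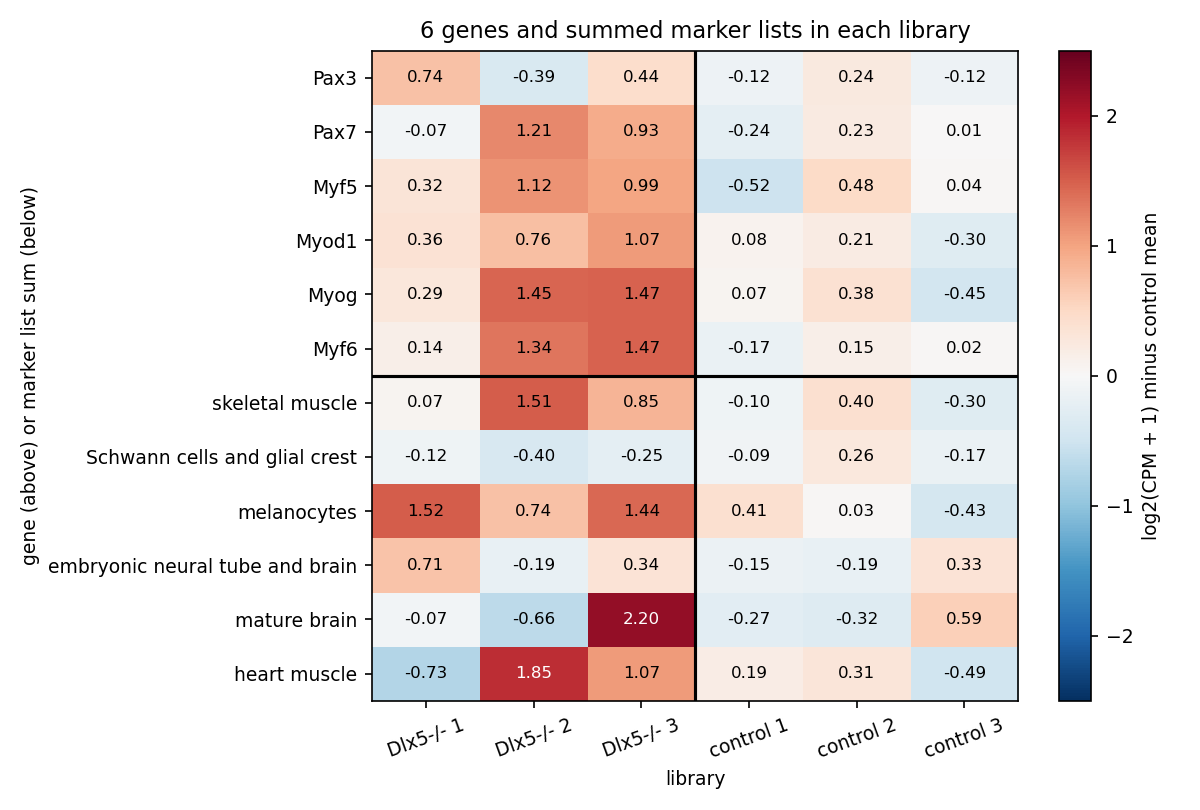
Log2(CPM + 1) of each of the 6 genes, and log2 of the summed CPM + 1 of each marker list, minus the mean of the 3 control libraries, by library (columns, Dlx5-/- left) with colour and printed value. Pax7, Myf5, Myod1, Myog, Myf6 and the skeletal muscle markers are highest in knockout replicates 2 and 3, Pax3 is highest in knockout replicates 1 and 3, and the mature brain list is at 2.20 in knockout replicate 3.

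Because Pax3 and Pax7 are also used outside muscle, markers of other cell types were set beside them; their part in the results was not tested. The 6 melanocyte markers summed to 20.1, 11.3 and 18.9 CPM in knockouts and 8.75, 6.49 and 4.46 CPM in controls. Among the knockouts this is the order of Pax3: highest in replicate 1, next in replicate 3 and lowest in replicate 2. Dct, an enzyme of melanin synthesis, measured 6.04, 3.04 and 7.02 CPM in knockouts and 2.16, 0.162 and 0 CPM in controls. Tyr, the tyrosinase gene that defines pigment cells, stayed below 1 CPM in every library and was at 0 in control replicates 1 and 3. Of the 6 markers, 0 to 1 were at 0 in knockouts and 1 to 4 in controls. The match of order does not extend to the controls, where control replicate 2 held the most Pax3 and control replicate 1 the most melanocyte RNA.

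The 12 markers of embryonic neural tube and brain summed to 78.5, 41.8 and 60.5 CPM in knockouts and 43.0, 41.8 and 60.4 CPM in controls, mostly Zic1. The library with the highest sum, knockout replicate 1, was also the highest for Pax3. Of the 6 neural markers that passed the filter, 2 had estimates above 0, among them Zic1, and 4 below. Their median log2 fold change was -0.42. The 8 markers of Schwann cells and glial crest summed to 447.5, 366.3 and 408.2 CPM in knockouts and 457.0, 580.5 and 430.2 CPM in controls, with the groups overlapping. The 10 mature brain markers summed to 49.0, 32.4 and 240.6 CPM in knockouts and 42.8, 41.2 and 78.2 CPM in controls, so that knockout replicate 3 stood out. The mature brain sum was the lowest of all 6 libraries in knockout replicate 2. In knockout replicates 2 and 3, Pax7 measured 13.1 and 10.7 CPM, Myf5 4.46 and 3.999, and Myog 44.6 and 45.4. Myod1 measured 21.1 and 26.3 CPM there, Myf6 1.85 and 2.11, and Pax3 0.543 and 1.74. Whether brain tissue bears on these values was not tested. Heart muscle markers summed to at most 11.4 CPM in any library (1.07, 11.4 and 6.19 CPM in knockouts, 2.92, 3.25 and 1.44 CPM in controls), and 3 or 4 of the 7 were at 0 in every library other than knockout replicate 3.

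Partners of the bHLH factors had smaller estimates than the factors themselves. Of 12 partner genes, among them E proteins, MEF2 factors and Eya genes, 11 passed the filter, and their estimates had a median of 0.12 on the log2 scale. None passed the adjusted test, and 4 were higher at an unadjusted p under 0.05, where 5.6% of all tested genes were. DESeq2 called 3 higher and 0 lower, where it called 0.807% of all genes higher and 2.62% lower. The E protein gene Tcf3 measured 141 ± 8.89 CPM in knockouts and 109 ± 4.93 CPM in controls (log2 fold change 0.37; adjusted p = 0.0940, edgeR), and Tcf12 measured 162 ± 14.2 CPM in knockouts and 127 ± 3.26 CPM in controls (0.35; adjusted p = 0.133). Eya1, a transcriptional cofactor, measured 58.3 ± 6.25 CPM in knockouts and 39.3 ± 7.53 CPM in controls (0.57; adjusted p = 0.135), and Eya4 24.9 ± 1.69 and 19.7 ± 0.517 CPM (0.34; adjusted p = 0.218). For these 4 genes the groups did not overlap, where 9.48% of all tested genes were higher without overlap. Knockout replicate 1 thus lay above the controls as well. The 4 were named for the smallest p-values of the list, so their lack of overlap is no separate evidence. Mef2c, a MEF2 factor, had an estimate of 0.16.

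The 17 inhibitors of the bHLH factors had a median estimate of 0.13 on the log2 scale, with 11 estimates above 0 and 6 below. None passed the adjusted edgeR test. At an unadjusted p under 0.05, 4 were higher and 1 lower, where 5.6% and 7.23% of all tested genes were. DESeq2 called 0 higher and 1 lower, where it called 0.807% of all genes higher and 2.62% lower. The one called by DESeq2 was Id4, a helix-loop-helix protein that binds E proteins but not DNA, at 31.9, 29.1 and 17.0 CPM in knockouts and 34.4, 50.1 and 54.6 CPM in controls (log2 fold change -0.85; adjusted p = 0.195, edgeR; 0.0193, DESeq2). Snai1, a zinc-finger repressor, measured 22.6 ± 2.27 CPM in knockouts and 17.1 ± 0.735 CPM in controls (0.40; adjusted p = 0.205, edgeR). Msc, which encodes the repressor musculin of head muscle precursors, measured 6.80 ± 1.80 CPM in knockouts and 4.08 ± 0.690 CPM in controls (0.73; adjusted p = 0.297, edgeR). Twist1, a bHLH factor of mesenchyme, had an estimate of 0.31 (adjusted p = 0.322, edgeR). The 3 other Id genes lay between -0.10 and 0.13.

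Among 14 surface and upstream genes of muscle precursors, 13 passed the filter, with a median log2 fold change of 0.39. None passed the adjusted edgeR test. At an unadjusted p under 0.05, 4 were higher and 2 lower, where 5.6% and 7.23% of all tested genes were. DESeq2 called 1 higher and 1 lower, where it called 0.807% of all genes higher and 2.62% lower. Cdon, a receptor that promotes myogenesis, measured 94.6 ± 10.6 CPM in knockouts and 51.4 ± 5.98 CPM in controls (0.88; adjusted p = 0.0527, edgeR; 2.77e-07, DESeq2). Tbx1, a regulator of head muscle precursors, measured 16.3 ± 4.96 CPM in knockouts and 8.59 ± 3.21 CPM in controls (0.94; adjusted p = 0.247, edgeR). Isl1, of second-heart-field and some pharyngeal muscle precursors and also of sensory neurons, measured 53.4 ± 10.9 CPM in knockouts and 87.0 ± 11.6 CPM in controls (-0.71; adjusted p = 0.0939, edgeR; 0.00136, DESeq2). Tcf21, a partner of Msc in head muscle, was near 1 CPM (0.508 ± 0.178 in knockouts and 1.52 ± 0.165 in controls; -1.59; adjusted p = 0.189, edgeR). The upstream regulators therefore did not share one direction. Lbx1, a marker of migrating trunk precursors such as those of the tongue, was under the filter at 0.237, 1.52 and 2.87 CPM in knockouts and 0.648, 0.406 and 0 CPM in controls.

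**Figure D4:**
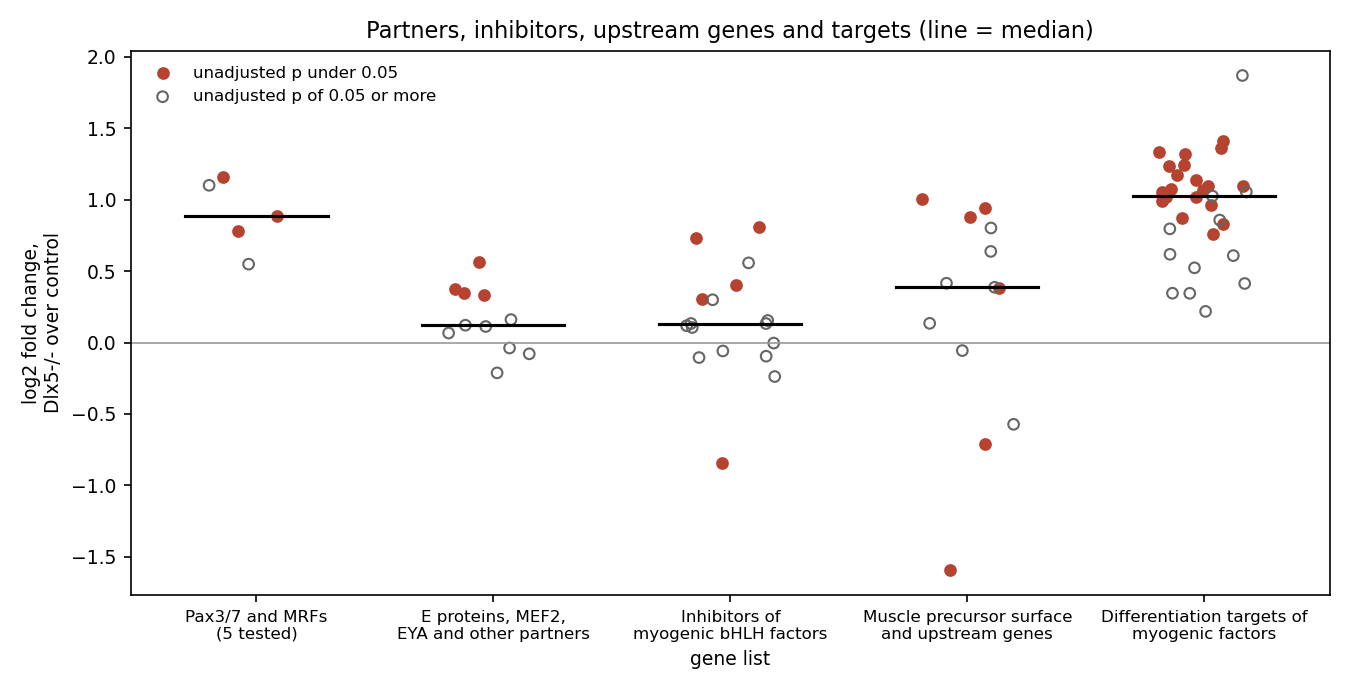
Log2 fold change (Dlx5-/- over control, vertical axis) of every gene that passed the filter in each list (columns), with the median as a black line; filled points have an unadjusted edgeR p under 0.05 and none of the points passed after adjustment. The differentiation targets lie above 0 for 32 of 32 genes with a median of 1.02, while the medians of partners and inhibitors are 0.12 and 0.13.

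All 32 genes written as differentiation targets of the bHLH factors passed the filter and had estimates above 0, with a median log2 fold change of 1.02. Many are part of the contractile apparatus, and all 12 muscle markers above are among them, so this list and the marker sum are not separate readings. None passed the adjusted edgeR test, and 20 were higher at an unadjusted p under 0.05, where 5.6% of all tested genes were. DESeq2 called 8 higher, where it called 0.807% of all genes higher. The median was 0.60 without knockout replicate 2, the library with the most muscle RNA, and 1.06 without knockout replicate 3. Myl1, a fast myosin light chain, measured 99.7 ± 31.0 CPM in knockouts and 46.5 ± 6.48 CPM in controls (1.09; adjusted p = 0.0746, edgeR). Tmem8c, now named Mymk and encoding the fusion protein myomaker, measured 15.9, 25.5 and 23.1 CPM in knockouts and 9.18, 11.0 and 5.17 CPM in controls (1.32; adjusted p = 0.0913, edgeR). Its groups did not overlap, where 9.48% of all tested genes were higher without overlap. Tmem8c was named for its small p-value, so this lack of overlap is no separate evidence. Mybph, a myosin-binding protein, had an estimate of 1.25 (adjusted p = 0.119, edgeR) and Tnnt2, a troponin T of embryonic muscle, of 1.24 (adjusted p = 0.120, edgeR). The smallest estimate of the list, 0.22, belonged to Cdkn1c, an inhibitor of the cell cycle.

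The genes most like each member were taken as the 3 with the highest Pearson correlation of log2(CPM + 1) over the 6 libraries. The candidates were 11582 genes with a mean of at least 5 CPM, leaving out the members themselves and predicted genes. With so many candidates and 6 libraries that also differ in group, high values are common, and they are given as a description. For Myog these were Ubxn2b (r = 0.999), Fndc5 (0.995), which encodes the precursor of irisin, and Mylk4 (0.994), a myosin light chain kinase. Mylk4 measured 8.05, 14.9 and 14.7 CPM in knockouts and 6.59, 7.31 and 4.46 CPM in controls, the pattern of Myog with knockout replicate 1 lowest among the knockouts. For Pax7 they were Echs1 (0.994), a mitochondrial enzyme, Nexn (0.986), an actin-binding protein of muscle, and Myl6b (0.984), a myosin light chain. For Myod1 they were Cnot1 (0.993), Prmt1 (0.991) and Oaz1-ps (0.988), a pseudogene whose reads may be shared with its parent. For Myf5 they were Hmgxb3 (0.994), Mad1l1 (0.988) and Arhgap10 (0.983), and for Pax3 Cul3 (0.993), Tfam (0.992) and Cnot4 (0.988). Genes for muscle proteins appeared beside Myog and Pax7, and not among the 3 closest to Myod1, Myf5 or Pax3. Myod1 and Myf5 still followed the summed skeletal muscle markers on the log2 scale (r = 0.82 and 0.88). The same correlation was 0.93 for Myog, 0.95 for Pax7, 0.89 for Myf6 and -0.24 for Pax3.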

How the data were processed

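The members and lists were chosen with earlier results of these data known. Per the labels' protocols, an RNeasy kit and a TruSeq mRNA library kit were used. STAR 2.4.1d, Partek and the build mm10 appear in the submitters' processing notes; annotation, strand and counting settings were not given in the sources used here. The authors deposited estimated counts per gene. The table is named normalized, yet its totals differ (6891724 to 11922391); 64.5% of values above 0.5 were whole within 0.001, as were all 36 values of the 6 genes. A further 1 column fits no label and was left out. Whether each library is a separate embryo is not labelled; p-values then reflect only the spread of these samples, which may be technical.

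Counts were rounded, filtered at a mean of 1 CPM (16218 genes) and tested with edgeR 4.0.16 (R 4.3.3; quasi-likelihood, TMM, no block, adjusted over all genes). SEs came from the F statistic. DESeq2 1.42.0, limma 3.58.1, other scalings and filters, a replicate block and each library left out were alternatives. Named genes are the members, Dlx5, up to 4 per list by p-value and the 3 most similar per member; others named were chosen after their values were seen. The within-library ratios were also chosen then. Coordinates and exon lengths are from GENCODE M21 (GRCm38, the assembly of mm10). Marker lists named skeletal muscle (12 of 12 estimates above 0), melanocytes (3 of 3 kept), Schwann cells (3 of 8), embryonic neural tube (2 of 6), mature brain (8 of 9) and heart muscle (1 of 1) were summed per library.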

Additional observations from a re-analysis of the deposited data

How the results depend on the processing

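All 6 genes kept an estimate above 0 under every alternative run (14 to 16 for each). Taking DESeq2 values without an adjusted p (Pax3, Myf6) as not past the threshold, 84 of 92 values stayed on the same side. The exceptions were Myog with DESeq2 (1.17) and with no filter (1.17), Myod1 with no filter (0.79), and Myf6, fitted with no filter, scaled by library totals and not TMM (3.28; adjusted p = 0.00805, edgeR) and in fits without knockout replicate 1, knockout replicate 2, control replicate 2 or control replicate 3 (3.76, 3.04, 4.25 and 3.30; over all 6 left out 2.75 to 4.25, adjusted p from 0.000755 to 0.183). Calls over all genes were 1 (0 higher, 1 lower) in the main test. They were 501 with DESeq2 (118 higher, 383 lower), 97 with limma-trend at a pseudocount of 1 (9 higher, 88 lower) and 96 at 0.5 (9 higher, 87 lower). In edgeR they were 679 with no filter (244 higher, 435 lower), 74 with a filter of 5 CPM (6 higher, 68 lower), 41 with library totals (0 higher, 41 lower), 0 with a replicate block (0 lower), and 0 to 164 with 1 library left out (0 to 12 higher, 0 to 152 lower); the 164 came without knockout replicate 3, and there were 0 without knockout replicate 1, knockout replicate 2 or control replicate 3, 6 without control replicate 1 and 4 without control replicate 2. The cause was not tested. Deviations from the group means were close to uncorrelated between same-numbered libraries (correlations -0.014, -0.011 and 0.020). With 3 libraries per group this cannot exclude a shared litter or day, which no label names. Under the replicate block Myog was at 1.11 and Myod1 at 0.76. Leaving out 6 rows that collect ribosomal RNA, an alternative chosen after seeing the data, gave 1 call. Pax3 and Myf5 had 5 to 53 counts per library, and Myf6 had 0 to 28. For Pax3 the interval from counting error alone covered equal levels in both groups (0.892 to 2.32). The same intervals for Myf5 and for Myf6 (3.97 to 41.5) lay above equal levels. These intervals leave out the spread between libraries, and what limited the tests of Pax3, Myf5 and Myf6 was not tested.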
